A study of Arabidopsis thaliana with 6 samples.

Results

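The expansins are plant cell wall proteins that let cellulose and matrix polymers slip past each other. The superfamily in Arabidopsis thaliana was taken by gene identifier from 4 groups: the alpha-expansins (EXPA), the beta-expansins (EXPB) and the expansin-like A and B groups (EXLA and EXLB). Of 36 listed identifiers, 35 were among the 32678 genes of the read count table, and 21 of these 35 had enough reads to be tested. The 36th, EXPA19, is annotated as a transcribed pseudogene and was not analysed here.

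Wild-type plants grew for 7 days on plates of MS, the mineral salt medium of Murashige and Skoog, followed by 12 h with melatonin, an indoleamine made from tryptophan. The 3 groups were 1000 µM melatonin, 100 µM melatonin and a control with none (0 µM), all wild type (WT), with 2 libraries each. The labels give leaf as the tissue of every sample, while the title of the series speaks of root growth. The labels name neither the number of plants in a library nor a separate origin for the libraries of one group, and p-values here therefore measure spread between libraries that may be technical replicates only.

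Expansins loosen the wall without cutting its polymers and work best at acidic pH, which the AHA proton pumps of the plasma membrane provide. Loosening of the wall by alpha- and beta-expansins has been shown directly, whereas EXLA and EXLB are grouped with them by sequence and lack such a demonstration. In shoots and roots their transcripts are known to accompany cell expansion, and single members are tied to single cell types, such as EXPA7 and EXPA18 to root hairs.

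The libraries held between 6410046 and 7723602 counted reads. Levels are given as CPM, read counts put on a common library size with a correction by the trimmed mean of M-values (TMM), and a call means an adjusted p under 0.05 in edgeR's quasi-likelihood test over 18380 genes. The 1000 µM libraries differed from each other more than those of the other groups did, with a chi-square per degree of freedom between replicates of 5.68 at 1000 µM, 1.86 at 100 µM and 1.96 in the control. Transcripts that mark roots and root hairs were counted in all 6 libraries although the label is leaf. The root hair list had reads for 10 of 10 genes in each library, and PYK10, an abundant root and hypocotyl glucosidase, averaged 2030 CPM at 1000 µM and 3240 CPM in the control. The leaf markers were present as well, with RCA, the Rubisco activase, at 3690 CPM at 1000 µM and 7880 CPM in the control.

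The summed expansin level was lower at each higher dose in these libraries, a description with no test. It was 595 and 600 CPM without melatonin, 487 and 495 CPM at 100 µM and 356 and 352 CPM at 1000 µM. The mean at 100 µM was 82.2% of the control mean and that at 1000 µM was 59.2% of it, and no library of one dose overlapped one of another. The sum is dominated by few genes: EXPA6, EXPA1, EXLA1 and EXPA3 made up between 49.1% and 53.4% of it in every library. In tissue samples such as these, fewer cells of a type and less RNA per cell cannot be told apart.

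By group, the 25 EXPA genes in the table summed to 277 and 255 CPM at 1000 µM, against 435 and 456 CPM in the control. The 3 EXLA genes summed to 42.2 and 59.2 CPM at 1000 µM, against 97.6 and 84.2 CPM in the control. The 6 EXPB genes summed to 21.2 and 20.2 CPM at 1000 µM, against 34.3 and 33.7 CPM in the control, almost all of it EXPB3. EXLB1, the one EXLB gene, had 15.6 and 17.7 CPM at 1000 µM, against 27.6 and 25.9 CPM in the control. Each group was lower in both 1000 µM libraries than in both controls. At 100 µM the EXLA sum was 54.2 and 58.2 CPM, below both controls, while the EXPB sum of 40.9 and 33.3 CPM overlapped the control values.

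**Figure D1:**
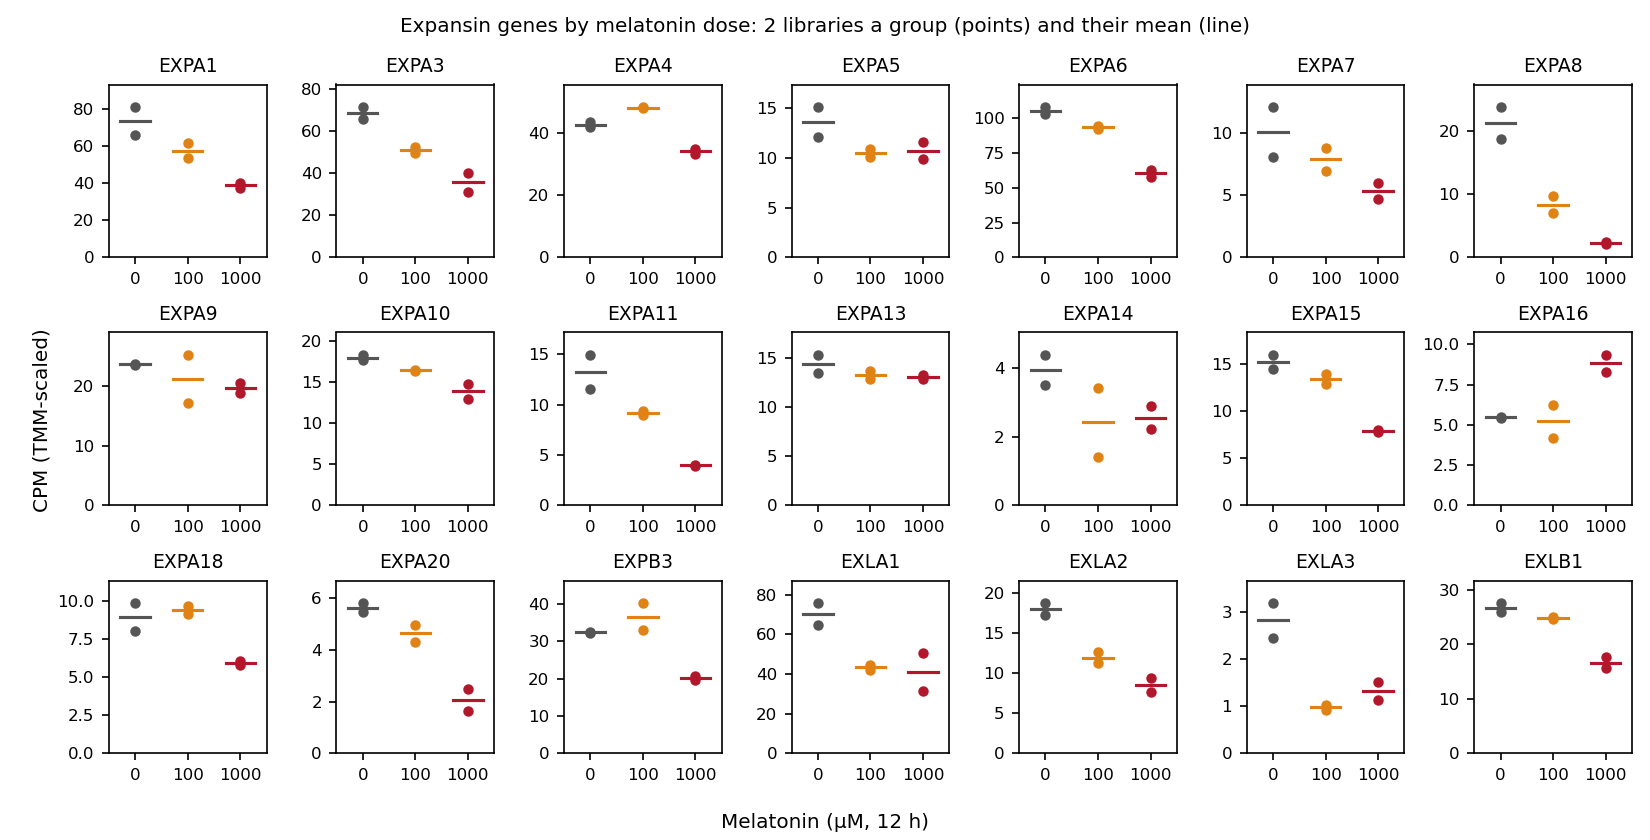
Level of each of the 21 tested expansin genes (y axis, TMM-scaled CPM, a scale of its own in each panel) by melatonin dose in µM (x axis), with points for the 2 libraries of a group and a line for their mean. EXPA8 falls to 2.49 and 2.15 CPM at 1000 µM, and EXPA16 is the panel in which both 1000 µM points, 8.30 and 9.34 CPM, lie above all others.

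Set per kilobase of the longest coding sequence, as a rough scale between genes, the control levels of the 21 tested genes covered a wide range. Transcript parts outside the coding sequence are not in this length, so the order and the ranks below are approximate. EXPA6 stood highest with 139 and 133 CPM per kb, and EXPA1, EXLA1 and EXPA3 followed between 79.7 and 98.2 CPM per kb with overlapping libraries. EXPA4 had 54.1 and 56.1 CPM per kb, EXPB3 40.6 and 40.8 CPM per kb, EXLB1 36.7 and 34.4 CPM per kb and EXPA9 30.3 and 30.4 CPM per kb. EXPA8 (24.6 and 31.2) overlapped EXPA9, and EXPA10 overlapped EXLA2. EXPA15, EXPA13, EXPA5, EXPA11, EXPA7 and EXPA18 followed between 10.2 and 20.9 CPM per kb, and each neighbouring pair of these overlapped except EXPA15 and EXPA13. EXPA20 had 7.54 and 7.08 CPM per kb and EXPA16 had 7.05 and 6.97, and below them EXPA14 and EXLA3 overlapped at the bottom of the order.

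EXPA6 stayed first at every dose. EXPA8 held rank 9 of the 21 in the control, rank 16 at 100 µM and rank 18 at 1000 µM, where it had 3.27 and 2.82 CPM per kb. EXPA16 went the other way, with rank 19 in the control, rank 18 at 100 µM and rank 12 at 1000 µM (10.6 and 11.9 CPM per kb). These ranks describe the levels and were not tested.

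The first comparison set 1000 µM melatonin against the control. Of the 21 tested expansins, 13 fell and 1, EXPA16, rose. Over all genes tested, 14.5% were called lower and 15.2% higher in this comparison, 29.6% in either direction. The median log2 fold change of the 21 was -0.77, beside -0.01 over all genes. For 20 of the 21, both 1000 µM libraries lay below both controls, an ordering found for 33.1% of all genes tested, and EXPA16 was in the opposite order, as were 31.5% of all genes. EXLA3 is among the 20, although it passed the filter on low counts through the controls. It had 22 and 18 reads in the controls and 11 and 9 reads at 1000 µM, so its order is tied to that filter. The 13 that fell were EXPA1, EXPA3, EXPA4, EXPA6, EXPA7, EXPA8, EXPA11, EXPA15, EXPA20, EXPB3, EXLA1, EXLA2 and EXLB1, so that all 4 groups were among them. When 1 library was left out at a time, between 12 and 14 fell.

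EXPA8 (AT2G40610, chromosome 2, 16948791 to 16950705 on the minus strand) changed most. It had 18.7 and 23.7 CPM without melatonin, 7.00 and 9.62 CPM at 100 µM and 2.49 and 2.15 CPM at 1000 µM. The 3 doses did not overlap, and the reads behind the 1000 µM values were 18 and 17. Its level at 1000 µM was 9.15-fold lower than in the control, a log2 fold change of -3.19 ± 0.25 (SE; edgeR adjusted p = 2.96e-08). Leaving out any 1 library kept the log2 fold change between -3.35 and -3.01.

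EXPA11 (AT1G20190) showed the next largest fall among the 13. It had 11.5 and 14.9 CPM without melatonin, 8.93 and 9.31 CPM at 100 µM and 4.01 and 3.91 CPM at 1000 µM. At 1000 µM it was 3.32-fold lower than in the control, with a log2 fold change of -1.73 ± 0.23 (SE; edgeR adjusted p = 1.77e-05). EXPA20 (AT4G38210), a low gene, had 5.81 and 5.46 CPM without melatonin, 4.32 and 4.96 CPM at 100 µM and 2.49 and 1.64 CPM at 1000 µM. Its log2 fold change at 1000 µM was -1.45 ± 0.32 (SE; edgeR adjusted p = 0.00246). EXPA20 shares 1061 bases with a long non-coding RNA on the opposite strand, for which no read was counted in any library. Whether reads were counted by strand is not given in the sources used here. Reads of the shared stretch could therefore have been dropped in counting, which would lower the level of EXPA20.

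The most abundant alpha-expansins fell by less on the log2 scale and with small errors. EXPA6 (AT2G28950) had 62.9 and 57.9 CPM at 1000 µM, against 108 and 103 CPM in the control (log2 fold change -0.80 ± 0.10, SE; edgeR adjusted p = 7.26e-06). EXPA3 (AT2G37640) had 40.2 and 31.2 CPM at 1000 µM, against 66.0 and 71.6 CPM in the control (-0.95 ± 0.12; adjusted p = 1.42e-05). EXPA1 (AT1G69530), a gene known to act in stomatal opening, had 40.4 and 37.7 CPM at 1000 µM, against 66.0 and 81.3 CPM in the control (-0.92 ± 0.12; adjusted p = 2.02e-05). In each of these 3 genes the 100 µM libraries lay between the other groups: 92.3 and 94.6 CPM for EXPA6, 52.4 and 49.8 CPM for EXPA3 and 53.6 and 62.0 CPM for EXPA1. EXPA15 (AT2G03090) had 8.02 and 7.83 CPM at 1000 µM, against 14.5 and 16.0 CPM in the control (-0.94 ± 0.18; adjusted p = 0.000636), and 14.0 and 12.9 CPM at 100 µM.

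The strongest falls by adjusted p were in EXPA8 and EXPA6, and their promoters, the 250 bases before the annotated start, are shown beside that of EXPA16, the one member that rose. They were read from the RefSeq assembly TAIR10.1, at chr2:16950706-16950955 (minus strand) for EXPA8, chr2:12433797-12434046 (minus strand) for EXPA6 and chr3:20576250-20576499 (minus strand) for EXPA16. Capitals mark matches to the motifs searched on both strands. The motifs were CACGTG (the G-box), TGTCTC and TGTCGG (auxin response elements), CGTGTG and CGTGCG (brassinosteroid response elements), TGACG (the core bound by TGA factors), ACGTG (the core of abscisic acid response elements, which also lies within CACGTG) and the root hair element.
EXPA8: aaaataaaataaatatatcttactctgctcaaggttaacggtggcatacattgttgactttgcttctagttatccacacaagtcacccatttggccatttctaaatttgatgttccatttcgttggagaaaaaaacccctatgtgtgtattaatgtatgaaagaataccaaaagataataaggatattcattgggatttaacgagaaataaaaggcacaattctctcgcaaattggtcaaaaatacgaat
EXPA6: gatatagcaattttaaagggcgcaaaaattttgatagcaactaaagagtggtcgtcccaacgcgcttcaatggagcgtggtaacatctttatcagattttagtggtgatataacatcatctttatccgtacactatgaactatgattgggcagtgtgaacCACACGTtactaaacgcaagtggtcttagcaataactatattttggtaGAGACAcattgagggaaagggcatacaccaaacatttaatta
EXPA16: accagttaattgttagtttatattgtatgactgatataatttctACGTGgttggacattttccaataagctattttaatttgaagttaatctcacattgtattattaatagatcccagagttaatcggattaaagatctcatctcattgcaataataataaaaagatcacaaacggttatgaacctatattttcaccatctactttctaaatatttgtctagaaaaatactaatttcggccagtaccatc
None of these letters was found in the EXPA8 window. That of EXPA6 held CGTGTG at -90, overlapping ACGTG at -88, and TGTCTC at -42, all read on the strand opposite to the printed one, and that of EXPA16 held ACGTG at -206, positions being those of the leftmost printed base of each match, counted from the start. Over 26711 promoters of the same length, ACGTG was in 23.1%, TGACG in 18.6%, TGTCTC in 10.9%, CACGTG in 6.6%, CGTGTG in 5.4%, TGTCGG in 4.2% and CGTGCG in 1.6%. Of the 21 tested expansins, ACGTG was in 7, TGACG in 5, TGTCTC in 4 (EXPA5, EXPA6, EXPA7 and EXPA10), CGTGTG in 3, CGTGCG in 3, TGTCGG in 1 and CACGTG in 0. A match describes the letters of the window only.

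EXPA16 (AT3G55500) was the one member that rose. It had 5.52 and 5.46 CPM without melatonin, 6.25 and 4.19 CPM at 100 µM and 8.30 and 9.34 CPM at 1000 µM. The 1000 µM libraries were above all others, and the log2 fold change against the control was 0.68 ± 0.24 (SE; edgeR adjusted p = 0.0427). The call did not hold without control replicate 1 (adjusted p = 0.146), control replicate 2 (0.159) or 1000 µM replicate 2 (0.109). By DESeq2 its adjusted p was 0.222. Its nearest relative among the tested genes is EXPA4 (AT2G39700), with 80.2% identity of the coding sequences and a longest shared run of 29 bases. EXPA4 had 41.8 and 43.4 CPM without melatonin, 47.8 and 48.2 CPM at 100 µM and 34.8 and 33.3 CPM at 1000 µM. It was lowest at 1000 µM and highest at 100 µM, with no overlap. Its log2 fold change at 1000 µM was -0.32 ± 0.11 (SE; edgeR adjusted p = 0.0339), and leaving out any library other than 1000 µM replicate 1 moved the adjusted p to between 0.0623 and 0.196. By DESeq2 the adjusted p of EXPA4 was 0.232.

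**Figure D2:**
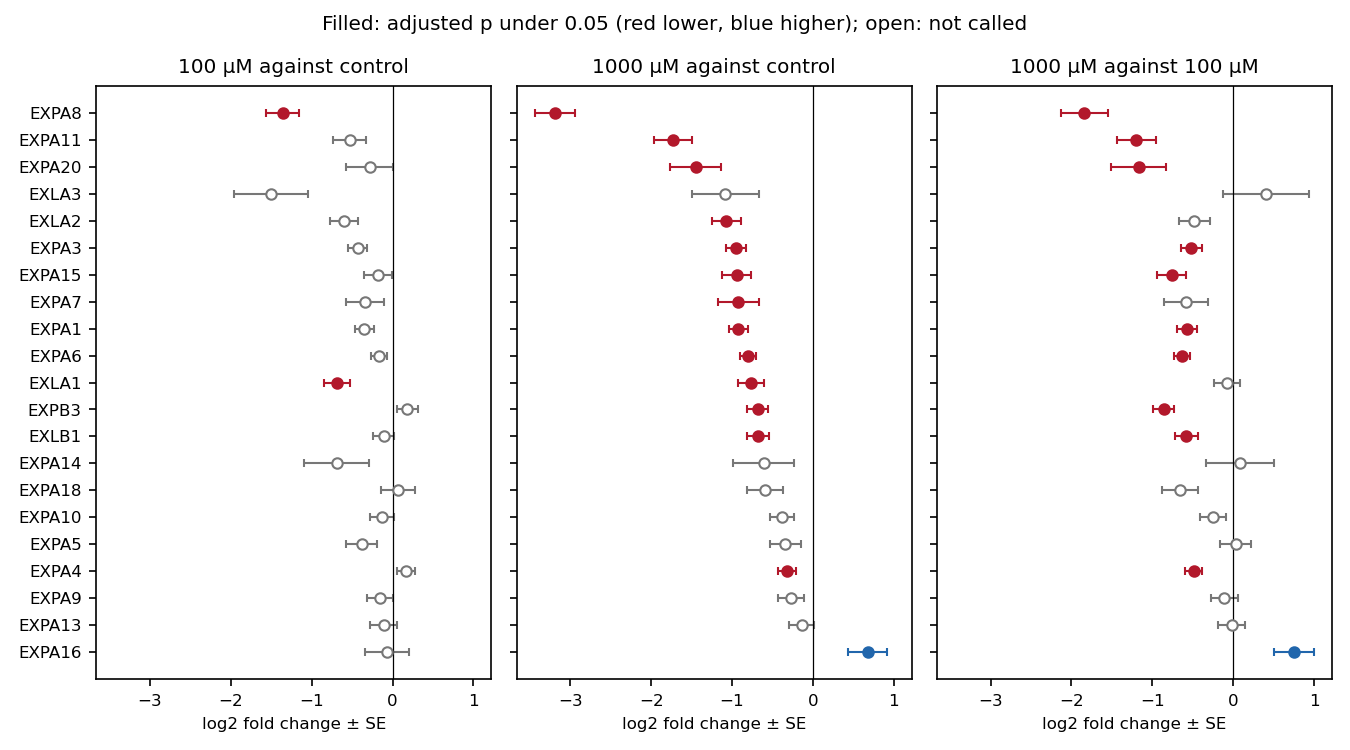
Log2 fold changes with standard errors (x axis) of the 21 tested expansins (y axis, ordered by the change at 1000 µM) in 3 comparisons, filled where the adjusted p was under 0.05. EXPA8 is lowest at -3.19 in the middle panel and -1.84 in the right panel, and EXPA16 is the one blue point in each of these 2 panels.

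EXPA7 (AT1G12560) and EXPA18 (AT1G62980) are the root hair expansins, needed for the outgrowth of hair cells. EXPA7 had 12.1 and 8.05 CPM without melatonin, 8.78 and 6.98 CPM at 100 µM and 5.95 and 4.67 CPM at 1000 µM, where its log2 fold change against the control was -0.92 ± 0.25 (SE; edgeR adjusted p = 0.011). The 1000 µM libraries lay below both controls, although the controls differed between themselves, and without control replicate 1 the adjusted p was 0.196. By DESeq2 the adjusted p of EXPA7 was 0.0736. EXPA18 had 9.88 and 8.05 CPM without melatonin, 9.68 and 9.15 CPM at 100 µM and 5.81 and 6.06 CPM at 1000 µM. Its log2 fold change of -0.59 ± 0.22 (SE) did not pass the threshold (edgeR adjusted p = 0.0529), and with no filter on low counts the adjusted p was 0.0446. The coding sequences of the pair are 71.6% identical.

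Other genes of root hairs moved at the same dose. Of the 10 root hair markers, 6 fell at 1000 µM against the control and RHD2, the NADPH oxidase of growing hairs, rose. Their median log2 fold change was -0.65. For this and the other marker lists, 14.5% of all genes tested were called lower and 15.2% higher at this dose. By DESeq2, 3 of the 10 fell and 0 rose, so that the rise of RHD2 was not called. Their summed level was 122 and 116 CPM at 1000 µM, against 177 and 170 CPM in the control. LRX2, a wall protein of hairs, had a log2 fold change of -1.21 (adjusted p = 4.56e-05) and COBL9 of -1.04 (adjusted p = 0.0117). At 100 µM against the control 0 of the 10 were called in edgeR (1 at an unadjusted p under 0.05, 0 by DESeq2). RSL4, the transcription factor that acts on hair length, was at 1.84 CPM at 1000 µM and 2.11 CPM in the control and was not called. The root markers summed to 2060 and 2100 CPM at 1000 µM, against 3240 and 3350 CPM in the control, nearly all of it PYK10, with 3 of 8 tested genes lower and 1, the iron transporter IRT1, higher. The leaf markers summed to 13900 and 12700 CPM at 1000 µM, against 21500 and 23400 CPM in the control, with 5 of 6 lower. The summed stomatal markers were 100 and 92.6 CPM at 1000 µM, against 78.6 and 73.8 CPM in the control, with 2 of 8 higher and 0 lower (0 at an unadjusted p under 0.05, 0 by DESeq2). The shoot apex markers, of which CLV3 had 0 counts in every library, summed to 23.0 and 23.7 CPM at 1000 µM, against 23.4 and 22.6 CPM in the control. The seed markers summed to 15.8 and 8.33 CPM at 1000 µM, against 17.4 and 4.37 CPM in the control. The part of these marker changes in the expansin results was not tested.

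The promoters of EXPA7 and EXPA18 are shown because both hold the root hair element, a motif of root hair genes known to be bound by RSL4. The windows are chr1:4276255-4276504 (plus strand) for EXPA7 and chr1:23331313-23331562 (plus strand) for EXPA18, and the EXPA18 window overlaps another annotated gene, AT1G62978, which had 0 counts. Capitals mark the motifs, the root hair element being the longest run in each.
EXPA7: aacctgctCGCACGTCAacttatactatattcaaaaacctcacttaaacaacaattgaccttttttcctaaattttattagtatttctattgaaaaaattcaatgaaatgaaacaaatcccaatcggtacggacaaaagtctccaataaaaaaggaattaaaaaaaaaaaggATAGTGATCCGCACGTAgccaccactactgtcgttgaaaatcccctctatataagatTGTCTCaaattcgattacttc
EXPA18: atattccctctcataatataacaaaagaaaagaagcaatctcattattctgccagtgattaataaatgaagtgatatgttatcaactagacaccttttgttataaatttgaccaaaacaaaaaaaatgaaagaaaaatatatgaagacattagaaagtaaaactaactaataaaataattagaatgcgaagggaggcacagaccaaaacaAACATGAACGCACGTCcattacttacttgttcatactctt
The element began at -78 in EXPA7 and at -40 in EXPA18, and CGTGCG and ACGTG on the strand opposite to the printed one overlap it in both. It was found in 203 of the 26711 promoters (0.8%) and in none of the other 33 expansin windows searched. This motif and the choice of these promoters, and of the EXLA promoters below, came after the values were known. The motif is one of root hair genes, as EXPA7 and EXPA18 are, so its presence in their windows is no independent finding.

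Of the tested genes outside the EXPA group, EXPB3, EXLB1, EXLA1 and EXLA2 fell and EXLA3 was not called. EXPB3 (AT4G28250) had 20.6 and 19.7 CPM at 1000 µM, against 32.3 and 32.5 CPM in the control, with a log2 fold change of -0.68 ± 0.13 (SE; edgeR adjusted p = 0.000864). EXLB1 (AT4G17030) had 15.6 and 17.7 CPM at 1000 µM, against 27.6 and 25.9 CPM in the control (-0.68 ± 0.14; adjusted p = 0.00115), and 24.6 and 25.1 CPM at 100 µM. EXLA2 (AT4G38400), whose loss is known to alter resistance to the fungus Botrytis, had 18.7 and 17.2 CPM without melatonin, 11.2 and 12.6 CPM at 100 µM and 9.40 and 7.70 CPM at 1000 µM. Its log2 fold change at 1000 µM was -1.07 ± 0.18 (SE; edgeR adjusted p = 0.000188). EXLA1 (AT3G45970), the most abundant of its group, had 75.7 and 64.5 CPM without melatonin, 42.0 and 44.7 CPM at 100 µM and 31.3 and 50.4 CPM at 1000 µM. The 1000 µM libraries of EXLA1 lay on both sides of the 100 µM values, and its log2 fold change against the control was -0.77 ± 0.16 (SE; edgeR adjusted p = 0.00122). EXLA3 (AT3G45960) was low, with 11 and 9 reads at 1000 µM, against 22 and 18 reads in the control, and was not called (-1.08 ± 0.42; adjusted p = 0.0621).

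The 3 EXLA genes are close relatives, with 82.3% to 86.0% identity of the coding sequences, against 46.5% to 50.9% between tested EXPA and EXLA genes. EXLA1 and EXLA3 share a run of 57 identical bases. EXLA1 also overlaps HTB9, a histone H2B gene on the opposite strand with 5103 reads, by 22 bases, and whether reads were counted by strand is not given in the sources used here.

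**Figure D3:**
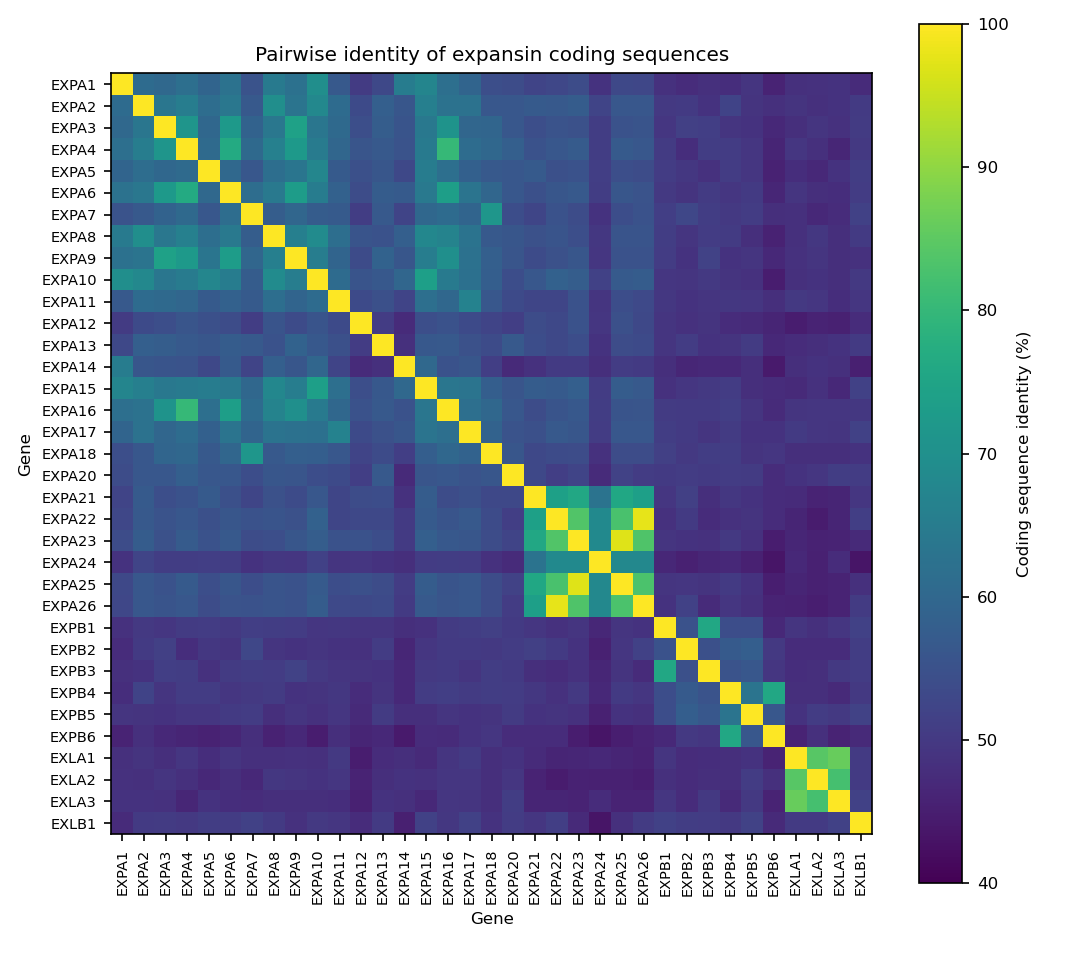
Identity in percent (colour) between the coding sequences of each pair of the 35 expansin genes with a coding sequence (both axes list the genes by group). The EXLA block in the lower right reaches 86.0%, and the block from EXPA21 to EXPA26 holds the 2 pairs above 97%, EXPA22 with EXPA26 (97.7%) and EXPA23 with EXPA25 (97.1%).

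The EXLA1 and EXLA2 promoters are shown because they share a run of letters at a like distance from the start. The windows are chr3:16895916-16896165 (plus strand) for EXLA1 and chr4:17979741-17979990 (minus strand) for EXLA2, which overlaps the annotated gene AT4G38401.
EXLA1: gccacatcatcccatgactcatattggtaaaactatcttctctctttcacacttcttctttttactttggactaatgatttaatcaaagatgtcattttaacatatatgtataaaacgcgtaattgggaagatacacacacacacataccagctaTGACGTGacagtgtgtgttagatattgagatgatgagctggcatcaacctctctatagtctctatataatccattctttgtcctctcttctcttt
EXLA2: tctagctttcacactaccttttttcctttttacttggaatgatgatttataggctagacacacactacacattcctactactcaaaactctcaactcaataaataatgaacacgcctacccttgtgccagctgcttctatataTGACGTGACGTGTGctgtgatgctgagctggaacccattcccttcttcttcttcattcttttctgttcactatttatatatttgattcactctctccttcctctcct
Capitals mark TGACG with the overlapping ACGTG, which began at -95 in EXLA1 and at -107 in EXLA2, where the pair of motifs recurs at -102 and runs into CGTGTG at -99. TGACG was also found in EXLA3 at -250, in EXLB1 at -83 and in EXPA7 at -238.

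Of the tested members, 7 were not called at 1000 µM. EXPA10 (AT1G26770), which is known for a role in leaf growth, had 14.8 and 13.0 CPM at 1000 µM, against 17.7 and 18.3 CPM in the control (log2 fold change -0.38 ± 0.15; edgeR adjusted p = 0.0758). EXPA5, a growth-promoting expansin regulated by brassinosteroids, had 11.6 and 9.84 CPM at 1000 µM, against 15.1 and 12.1 CPM in the control (-0.34 ± 0.19; adjusted p = 0.176). EXPA9 (-0.27 ± 0.16), EXPA13 (-0.14 ± 0.16) and EXPA14 (-0.61 ± 0.38), a gene known from lateral root emergence, had adjusted p values of 0.235, 0.575 and 0.248. EXPA18 and EXLA3 are given above. All 7 had both 1000 µM libraries below both controls, with the limit given above for EXLA3.

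The second comparison set 100 µM melatonin against the control. Of the 21 tested expansins, EXPA8 and EXLA1 fell and 0 rose (0 at an unadjusted p under 0.05, 0 by DESeq2). Over all genes tested, 1.53% were called lower and 1.79% higher, 3.32% in either direction. The median log2 fold change of the 21 was -0.28, beside -0.01 over all genes. Both 100 µM libraries lay below both controls for 14 of the 21 and above both for 2, orderings found for 25.0% and 25.4% of all genes. EXLA3 is among the 14, with the limit given above: it passed the filter on low counts through the controls. At 100 µM it had 7 and 6 reads, so its order is tied to that filter.

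EXPA8 was 2.56-fold lower at 100 µM than in the control (log2 fold change -1.36 ± 0.20, SE; edgeR adjusted p = 0.000777), and without 100 µM replicate 1 the adjusted p was 0.0522. EXLA1 was 1.62-fold lower (-0.69 ± 0.16; adjusted p = 0.021). The EXLA1 call did not hold without control replicate 1 (adjusted p = 0.225), 100 µM replicate 1 (0.279) or 100 µM replicate 2 (0.215). EXLA2 (-0.60 ± 0.17; adjusted p = 0.0726), EXPA3 (-0.43 ± 0.12; 0.0609) and EXPA1 (-0.35 ± 0.12; 0.141) did not pass the threshold. All 3 were called when either 1000 µM library was left out of the fit, which then gave 5 lower members. EXLA3, with 7 and 6 reads at 100 µM against 22 and 18 reads in the control, had a log2 fold change of -1.50 ± 0.46 (SE; edgeR adjusted p = 0.0946). EXPA4 (0.17 ± 0.11), EXPB3 (0.18 ± 0.13) and EXPA18 (0.07 ± 0.21) had positive values that were not called.

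The third comparison set 1000 µM against 100 µM. It shares its libraries with the first 2 comparisons, which in turn share the controls, so the 3 sets of calls are not independent. Of the 21, 10 fell and EXPA16 rose. Over all genes tested, 7.3% were called lower and 8.65% higher, 16.0% in either direction. The median log2 fold change was -0.52, beside 0 over all genes. Both 1000 µM libraries lay below both 100 µM libraries for 14 of the 21 and above both for 2, with 27.6% of all genes in each ordering. The count of members that fell was 5 without 100 µM replicate 1 and 5 without 100 µM replicate 2.

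EXPA8 was 3.57-fold lower at 1000 µM than at 100 µM (log2 fold change -1.84 ± 0.29, SE; edgeR adjusted p = 0.000222) and EXPA11 2.30-fold lower (-1.20 ± 0.24; adjusted p = 0.0023). EXPB3 had 20.6 and 19.7 CPM at 1000 µM, against 40.2 and 32.9 CPM at 100 µM (-0.86 ± 0.13; adjusted p = 0.000207), and EXPA6 had 62.9 and 57.9 CPM at 1000 µM, against 92.3 and 94.6 CPM at 100 µM (-0.63 ± 0.10; adjusted p = 0.000227). These 4 and EXPA1, EXPA3, EXPA4, EXPA15, EXPA20 and EXLB1 make up the 10. The falls of EXPA3 (-0.52; adjusted p = 0.00838), EXPA4 (-0.49; 0.0044), EXPA20 (-1.17; 0.0239) and EXLB1 (-0.58; 0.00898) were not called without 100 µM replicate 1 or without 100 µM replicate 2, where the adjusted p lay between 0.0578 and 0.169. That of EXPA15 (-0.76; 0.00827) was not called without 100 µM replicate 1 (0.1), that of EXPA1 (-0.57; 0.00439) without 100 µM replicate 2 (0.107), and that of EXPA20 also without 1000 µM replicate 2 (0.111). By DESeq2, 7 members fell between the doses, and EXPA15 (adjusted p = 0.0847), EXPA20 (0.151) and EXLB1 (0.0856) were not called. The rise of EXPA16 (0.75 ± 0.25; adjusted p = 0.0485) held in 1 of the 6 fits that each left out a library, the one without 1000 µM replicate 1, and was lowest at 0.50 without 100 µM replicate 2 (adjusted p = 0.356).

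None of the 3 EXLA genes was called between the doses by edgeR (1 at an unadjusted p under 0.05, 0 by DESeq2). EXLA1 had a log2 fold change of -0.08 ± 0.16 (SE; edgeR adjusted p = 0.801) for 1000 µM against 100 µM, EXLA2 of -0.48 ± 0.19 (adjusted p = 0.106) and EXLA3 of 0.41 ± 0.53 (adjusted p = 0.66). Without 1000 µM replicate 2, EXLA1 was called lower (-0.46; adjusted p = 0.0122). Whether the groups differ in their response was not tested.

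The other 14 members in the table had too few reads to be tested. EXPA22, EXPA23, EXPA24, EXPA25, EXPA26, EXPB4, EXPB5 and EXPB6 had 0 counts in every library, which allows a level of up to between 0.379 and 0.465 CPM in a library. That limit, 3 counts, covers counting error only. EXPA21 to EXPA26 lie side by side on chromosome 5. EXPA22 and EXPA26 are 97.7% identical in coding sequence with a shared run of 208 bases, and EXPA23 and EXPA25 are 97.1% identical with a shared run of 219 bases, so reads that fit both genes of a pair could have been dropped in counting. EXPA21 had 7 reads in all and shares 964 bases with AT5G39250 on the opposite strand, where reads could have been dropped as well.

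EXPA12 and EXPB2 had 1 read each over the 6 libraries and EXPA2, known from seed germination, had 7. EXPA17 (AT4G01630), known from lateral root emergence, had 4 and 0 reads at 1000 µM and 3 and 2 reads at 100 µM, against 5 and 21 reads in the control. Over each group the ratio of 1000 µM to the control was 0.141 (95% counting interval 0.0358 to 0.407), and most control reads came from replicate 2. With no filter on low counts its edgeR adjusted p was 0.00541. EXPB1 (AT2G20750) had 4 and 4 reads at 1000 µM and 5 and 3 reads at 100 µM, against 13 and 9 reads in the control, a ratio of 0.334 at 1000 µM (0.129 to 0.779) and 0.393 at 100 µM (0.151 to 0.917). With no filter its adjusted p was 0.111 at 1000 µM.

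Other genes of the acid growth pathway were read from lists of whole families. The XTH enzymes cut and rejoin xyloglucan, a tether between cellulose fibrils. Of 33 XTH genes 27 were tested, and at 1000 µM against the control 13 fell and 6 rose, with a median log2 fold change of -0.44. Over all genes tested, 14.5% were called lower and 15.2% higher in that comparison. The shares were 1.53% and 1.79% at 100 µM against the control, and 7.3% and 8.65% between the doses. XTH33 had 16.9 and 17.5 CPM at 1000 µM, against 69.7 and 69.2 CPM in the control (-2.01; edgeR adjusted p = 1.1e-09), and XTH16 fell by 1.37 (adjusted p = 2.16e-08). XTH31 had 82.4 and 70.8 CPM at 1000 µM, against 11.5 and 11.7 CPM in the control (2.72; adjusted p = 1.03e-10), and XTH23 rose by 1.72 (adjusted p = 6.28e-10). The summed XTH level was 7750 and 6680 CPM at 1000 µM, against 5940 and 5760 CPM in the control. It was thus above both controls, whereas the summed expansin level was below both. Few genes dominate this sum, and it does not describe the 13 that fell. XTH24 alone had 3410 and 2690 CPM at 1000 µM, against 2020 and 1960 CPM in the control. XTH4 had 1560 and 1330 CPM at 1000 µM, against 1270 and 1280 CPM in the control. At 100 µM against the control 7 XTH genes fell and 1 rose, and leaving out a control or 100 µM library brought the falls to 3 or 4. Between the doses 5 fell and 7 rose. The falls numbered 9 without 1000 µM replicate 2 and 3 without 100 µM replicate 2, and the rises numbered 4 without 100 µM replicate 1.

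The AHA genes code for the proton pumps that acidify the wall. Of 8 tested, AHA11 fell at 1000 µM, with 98.7 and 92.4 CPM, against 134 and 128 CPM in the control (-0.45 ± 0.09; edgeR adjusted p = 0.00123), and 0 rose (0 at an unadjusted p under 0.05, 0 by DESeq2). AHA1 and AHA2, the main pumps, had log2 fold changes of 0.00 ± 0.10 and 0.06 ± 0.12. The median of the 8 was -0.13, and 14.5% of all genes tested were called lower at this dose. At 100 µM against the control 0 were called in edgeR, 1 at an unadjusted p under 0.05 and 0 by DESeq2, and the counts at 1000 µM against 100 µM were the same.

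The clade D type 2C phosphatases remove an activating phosphate from these pumps, and SAUR proteins inhibit them. All 9 were tested. At 1000 µM against the control 3 rose, AT4G33920 (1.10 ± 0.11; edgeR adjusted p = 4.04e-07), AT3G12620 (0.45 ± 0.13; 0.0129) and AT5G02760 (0.34 ± 0.11; 0.0276), and AT4G38520 fell (-0.49 ± 0.09; 0.000617). Without control replicate 1 the number that rose was 1, as it was by DESeq2, and without control replicate 2 the number that fell was 2. The median of the 9 was -0.02, and of all genes tested 15.2% were called higher and 14.5% lower at this dose. At 100 µM against the control 2 of the 9 fell (0 by DESeq2), beside 1.53% of all genes. Between the doses 2 rose, beside 8.65% of all genes.

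**Figure D4:**
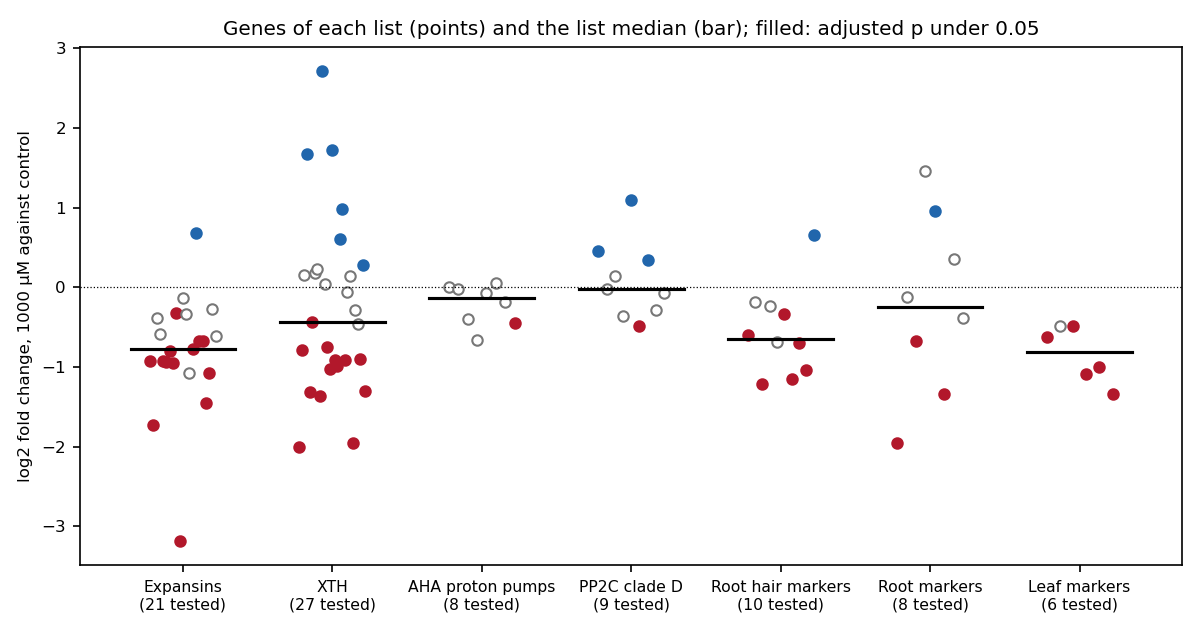
Log2 fold changes at 1000 µM against the control (y axis) for the tested genes of each list (points, in order of gene identifier) with the list's median (bar), filled where the adjusted p was under 0.05. The expansin points lie below 0 except EXPA16 at 0.68, whereas the XTH points run from -2.01 to 2.72 and the AHA points stay between -0.66 and 0.06.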

How the data were processed

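Per the labels, total RNA was sequenced from 6 libraries, 2 a group. The deposited values are raw read counts per gene (whole numbers, totals from 6410046 to 7723602). The submitters' processing notes name Bowtie2 2.2.3, TopHat2 2.0.12, HTSeq 0.6.1, DESeq 1.18.0 and the build TAIR10, without their roles. The strand setting is not given in the sources used here. Gene positions, coding sequences (the longest annotated form) and promoters came from RefSeq's TAIR10.1, which keeps the nuclear chromosomes of TAIR10. The count table gives no coordinates.

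Genes were filtered with edgeR's filterByExpr (minimum count 10, minimum total 15), leaving 18380 of 32678. All 6 libraries were fitted together with TMM scaling and glmQLFit, and the 3 dose contrasts were tested with glmQLFTest and adjusted over all 18380 genes (R 4.3.3, edgeR 4.0.16; biological coefficient of variation 7.78%, 3 residual degrees of freedom). The fit was tested on simulated counts. Counting intervals are 95% exact binomial.

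The alternatives were DESeq2 1.42.0, relative log expression size factors, no filter, only the 2 groups compared, the replicate number as a block and leaving out each library. DESeq2 gave no adjusted p to 4 members at 100 µM and to 1 member between the doses. The members, gene lists and marker lists were chosen with earlier results of these data known. By the naming rule every member is accounted for. The 10 members with the smallest adjusted p at 1000 µM and all members called at 100 µM or between doses get full values. Of the related families, up to 2 called genes a direction are named. Named besides are AT5G02760, XTH24 and XTH4 for the summed XTH level, and AHA1 and AHA2 as the main pumps.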

Additional observations from a re-analysis of the deposited data

How the results depend on the processing

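At 1000 µM against the control, the number of members that fell was 13 in the fit as reported and 11 to 15 under every alternative (12 to 14 leaving out 1 library). The number that rose was 1, and 0 with DESeq2, 0 with the replicate block and 0 to 1 leaving out 1 library. At 100 µM against the control, 2 fell, with 5 under no filter, 6 with only the 2 groups compared and 0 to 5 leaving out 1 library. Between the doses 10 fell, with 7 in DESeq2 and 5 to 10 leaving out 1 library, and 1 rose, with 0 in DESeq2, 0 with only the 2 groups compared, 0 with the replicate block and 0 to 1 leaving out 1 library. The cause of these shifts was not tested.

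Relative log expression size factors changed no call of a member. The replicate numbers do not pair the libraries: the correlation of same-numbered deviations was 0.028 for 100 µM with the control, -0.031 for 1000 µM with the control and -0.066 for 1000 µM with 100 µM. With the replicate block, 12 of the 14 calls at 1000 µM remained, EXPA4 (adjusted p = 0.0502) and EXPA16 (0.0567) being lost, and 10 of 11 between the doses.

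Of 687 member values under the alternatives, 11 changed sign, all of them in fits that left out 1 library and none of them called. Leaving out 1 library at a time, the log2 fold changes between the doses ranged from -0.09 to 0.16 for EXPA5, -0.35 to 0.19 for EXPA9, -0.07 to 0.03 for EXPA13, -0.41 to 0.88 for EXPA14 and -0.46 to 0.22 for EXLA1. At 100 µM against the control they ranged from -0.46 to 0.09 for EXPA9, -0.39 to 0.19 for EXPA16 and -0.07 to 0.23 for EXPA18. The fewest reads among the 21 tested were those of EXLA3 (73 over all libraries), EXPA14 (127) and EXPA20 (172), and how far depth limits their calls was not tested.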
